A study of Mus musculus with 6 samples.

Results

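The 8 genes described here encode the liver metallothioneins Mt1 and Mt2, the zinc importers Slc39a4, Slc39a5, Slc39a8 and Slc39a14, and the exporters Slc30a1 and Slc30a10. They were picked by symbol from the 24341 gene rows of a liver RNA table, and all 8 were present. The rule that names them does not use their values, but they were chosen with earlier results of these data known. The table holds 6 livers of C57BL/6 mice on regular chow. In 3 livers, labelled Alb-Cre below, both Prkci alleles are flanked by loxP sites (Prkciflox/flox) and a Cre recombinase under the albumin promoter, active in hepatocytes, is also present. The 3 floxed livers carry the same loxP alleles and no Cre by their labels, so no group here has an unmodified Prkci gene, and no group carries Cre alone. Prkci encodes the atypical protein kinase C lambda/iota. The mice were 30 weeks old by their labels and 28 weeks old by the series' design text. The labels number the livers 1 to 3 in each group and do not pair livers of the same number. They also do not state that every liver is from a separate mouse. The p-values below therefore describe the scatter among these 6 samples, which may be technical.

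Cells keep free zinc very low. Proteins of the Slc39 (ZIP) family bring zinc and other divalent metals into the cytosol, proteins of the Slc30 (ZnT) family move them out, and metallothioneins, small proteins rich in cysteine, bind the metal in between. In hepatocytes the transcription factor MTF1 senses zinc and binds metal response elements in the promoters of metallothionein genes and Slc30a1. Metallothioneins and Slc39a14 are also known to respond to glucocorticoids or inflammatory cytokines, and Slc39a8, Slc39a14 and Slc30a10 carry manganese as well.

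Values are FPKM, read fragments scaled to transcript length and library size, as the authors deposited them. Read totals were not given and were estimated from the steps between low values at 15200000 to 17620000 in livers labelled Alb-Cre and 14780000 to 16540000 in floxed livers. Prkci was at 5.70, 5.26 and 4.42 FPKM in livers labelled Alb-Cre and 5.57, 3.65 and 4.44 FPKM in floxed livers, so a lower level was not seen. The value covers the whole gene and all liver cells, and it does not check the labels. Livers are therefore named by their label throughout. Alb-Cre replicate 1 stood apart from replicates 2 and 3 of its group in many genes, so results are also given without it. In bulk liver, fewer cells of a type and less RNA per cell cannot be told apart. Of the 10 hepatocyte markers 9 were at 164 FPKM or more in each liver, while Alb itself was listed at 0 in all 6, a value that can be a failed estimate.

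Mt1 and Mt2, the metallothioneins of liver, had lower means in livers labelled Alb-Cre, and in each of the 3 same-numbered pairs the Alb-Cre liver lay below the floxed liver. The groups nevertheless overlapped, because the livers numbered 1 were low in both groups. Mt1 was at 120.8, 483 and 536 FPKM in livers labelled Alb-Cre 1, 2 and 3 and at 234, 630.0 and 589 FPKM in floxed livers 1, 2 and 3. Mt1 in Alb-Cre replicate 1 was thus the lowest of the 6, and floxed replicate 1 was the next lowest. Mt1 averaged 380.1 ± 226 FPKM in livers labelled Alb-Cre and 485 ± 218 FPKM in floxed livers (SD, n = 3 each). Its log2 difference on the log2(FPKM + 1) scale was -0.49 (SE 0.66, 95% interval -2.08 to 1.10, limma adjusted p = 0.852). Without Alb-Cre replicate 1 the sign of this difference turned (0.20), and without both livers numbered 1 it was -0.26.

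Mt2 was at 77.8, 148 and 271 FPKM in livers labelled Alb-Cre and at 147, 393 and 360.4 FPKM in floxed livers. Alb-Cre replicate 2 was here almost level with floxed replicate 1, and no liver labelled Alb-Cre reached the floxed livers numbered 2 and 3. Mt2 averaged 166 ± 97.6 FPKM in livers labelled Alb-Cre and 300.1 ± 133 FPKM in floxed livers (SD, n = 3 each), with a log2 difference of -0.91 (SE 0.55, 95% interval -2.22 to 0.41, limma adjusted p = 0.622). A fit that blocks on replicate number gave the same estimate with an interval from -1.48 to -0.33 (limma unadjusted p = 0.0102, adjusted p = 0.233). That block rests on a pairing taken from these same data, not from the labels. Without Alb-Cre replicate 1 the difference was -0.46, and with sample quality weights it was -0.16. Within pairs 1, 2 and 3, Mt2 in the Alb-Cre liver stood at 52.9%, 37.8% and 75.1% of the floxed liver, and Mt1 stood at 51.5%, 76.7% and 90.9%.

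The balance between the 2 metallothioneins was nearly constant in floxed livers and varied in the others. The ratio of Mt2 to Mt1 was 0.644, 0.307 and 0.505 in livers labelled Alb-Cre and 0.627, 0.623 and 0.611 in floxed livers. Alb-Cre replicate 1, where both genes were lowest, kept a ratio near the floxed livers, and replicates 2 and 3 lay below it. This ratio was chosen after its values were seen and was not tested.

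Mt2 lies at 94172664 to 94173568 and Mt1 at 94179082 to 94180327 on chromosome 8 of GRCm38 (mm10), both on the plus strand and 5513 bases apart. Mt2 overlaps the gene model Gm45774 on the other strand, and no source used here states whether reads were counted by strand. RefSeq promoter windows (GRCm38.p6, 250 bases before to 50 after the annotated start) were found for 6 of the 8 genes, as 8 windows. They were searched on both strands for the core of the metal response element, spelled TGCACNC or TGCGCNC, because Mt1, Mt2 and Slc30a1 are textbook MTF1 targets. The windows of the metallothioneins and of the 2 exporters are shown with each match in capitals.
Mt1 (chr8:94178839-94179138, plus strand): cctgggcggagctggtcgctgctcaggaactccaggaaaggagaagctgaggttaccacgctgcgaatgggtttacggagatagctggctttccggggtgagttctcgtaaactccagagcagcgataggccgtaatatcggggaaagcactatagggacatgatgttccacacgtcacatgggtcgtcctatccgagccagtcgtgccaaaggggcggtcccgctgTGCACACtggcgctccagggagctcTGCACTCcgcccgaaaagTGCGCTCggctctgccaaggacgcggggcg
Mt2 (chr8:94172368-94172667, plus strand): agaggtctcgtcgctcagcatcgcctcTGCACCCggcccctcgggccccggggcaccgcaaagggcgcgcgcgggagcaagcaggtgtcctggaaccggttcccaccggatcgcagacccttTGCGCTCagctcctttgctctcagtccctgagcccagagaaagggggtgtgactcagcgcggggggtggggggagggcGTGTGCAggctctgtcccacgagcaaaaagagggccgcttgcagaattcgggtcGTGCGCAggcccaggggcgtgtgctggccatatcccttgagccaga
Slc30a1 (chr1:191906531-191906830, plus strand): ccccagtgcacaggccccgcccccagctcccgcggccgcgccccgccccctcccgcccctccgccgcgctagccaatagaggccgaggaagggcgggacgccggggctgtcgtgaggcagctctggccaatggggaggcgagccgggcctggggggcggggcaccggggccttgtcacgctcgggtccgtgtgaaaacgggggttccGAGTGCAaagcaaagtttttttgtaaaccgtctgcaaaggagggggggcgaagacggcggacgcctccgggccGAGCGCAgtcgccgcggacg
Slc30a10 (chr1:185454598-185454897, plus strand): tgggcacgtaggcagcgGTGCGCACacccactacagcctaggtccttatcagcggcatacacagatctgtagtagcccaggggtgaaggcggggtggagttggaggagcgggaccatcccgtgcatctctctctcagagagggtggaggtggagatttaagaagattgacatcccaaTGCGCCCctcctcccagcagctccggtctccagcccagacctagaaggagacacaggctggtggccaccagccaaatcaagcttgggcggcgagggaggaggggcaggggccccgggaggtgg
Mt1 held 3 matches, starting at -23, 3 and 21 relative to the RefSeq start, all on the plus strand. Mt2 held 4, at -223 and -128 on the plus strand and -50 and 5 on the minus strand. Slc30a1 held 2 on the minus strand, at -43 and 31, and Slc30a10 held 3, of which those at -233 and -232 overlap on opposite strands. Of 32851 mouse promoter windows of the same length, 25.7% held at least 1 match, 7.11% at least 2, 1.97% at least 3 and 0.517% at least 4. Of the 2 windows each for Slc39a5 and Slc39a8, 1 held a single match and the other held none. A match describes the letters in this window and is not a binding site. Mt1 has 3 annotated transcripts, and positions relative to another start would differ.

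**Figure D1:**
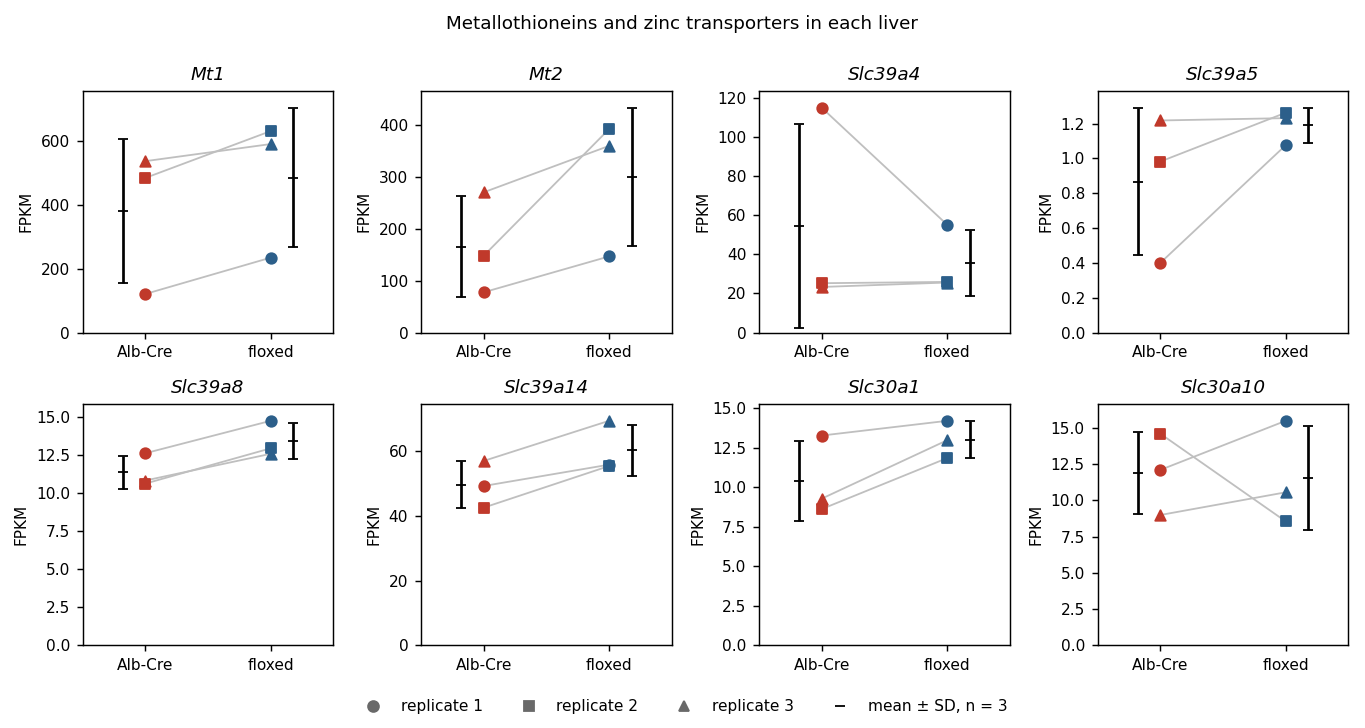
FPKM (vertical axes, linear, from 0) of the 8 genes in each liver, with livers labelled Alb-Cre on the left and floxed livers on the right of each panel. Grey lines join livers of the same replicate number, and black bars give mean ± SD over n = 3. Within each group Mt1 and Mt2 were lowest and Slc39a4 highest in replicate 1. In all 3 pairs 6 of the 8 genes sloped upward towards the floxed liver, against 16.8% of all genes tested. Slc39a5, among these 6, reached 1 FPKM mainly in the floxed livers.

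Slc39a4, which encodes the zinc importer ZIP4 best known from intestinal zinc uptake, was high in the livers numbered 1, where the metallothioneins were low. In pairs 2 and 3 it was slightly lower in the Alb-Cre liver, as Mt1 and Mt2 were. It was at 114.7, 25.2 and 23.3 FPKM in livers labelled Alb-Cre and at 55.0, 25.9 and 25.6 FPKM in floxed livers. The livers numbered 1 were the 2 highest, and the other 4 lay within 23.3 to 25.9 FPKM whatever their group. The means were 54.4 ± 52.2 FPKM in livers labelled Alb-Cre and 35.5 ± 16.9 FPKM in floxed livers (SD, n = 3 each; log2 difference 0.29, SE 0.65, 95% interval -1.26 to 1.84, limma adjusted p = 0.913). Without Alb-Cre replicate 1 the difference turned to -0.44, and without both livers numbered 1 to -0.082. The ratio of Mt1 to Slc39a4 was 1.05, 19.2 and 23.0 in livers labelled Alb-Cre and 4.26, 24.3 and 23.0 in floxed livers. Slc39a4 occupies bases 76612383 to 76617384 of chromosome 15 (minus strand), with no annotated gene overlapping it.

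Several lists of cell type markers, but not all, were also high in the livers numbered 1. Their part in the levels of Slc39a4, Mt1 and Mt2 was not tested. The summed FPKM of 10 Kupffer cell and macrophage markers was 844, 249 and 395 in livers labelled Alb-Cre and 548, 120.9 and 499.7 in floxed livers. The 9 neutrophil markers in the table summed to 294, 9.44 and 14.1 FPKM in livers labelled Alb-Cre and to 29.4, 5.62 and 11.1 FPKM in floxed livers. Neutrophil markers were thus far higher in Alb-Cre replicate 1 than in any other liver, while in macrophage markers floxed replicate 3, with a low Slc39a4 value, was close to floxed replicate 1. The 8 cholangiocyte markers summed to 153, 23.0 and 21.8 FPKM in livers labelled Alb-Cre and to 66.7, 54.2 and 35.3 FPKM in floxed livers, most of it Spp1, which other cells express too. Krt19, a defining cholangiocyte marker, was under 1 FPKM in the 3 livers labelled Alb-Cre (0.339, 0.617 and 0.0532) and at 1.75, 0.937 and 0.519 FPKM in floxed livers. The 10 stellate cell markers summed to 239, 142 and 113 FPKM in livers labelled Alb-Cre and to 190.4, 118 and 149.8 FPKM in floxed livers, highest in replicate 1 of each group. So did the 10 sinusoidal endothelial markers peak, at 273.9, 150.2 and 149.9 FPKM in livers labelled Alb-Cre and 313.8, 90.4 and 278.5 FPKM in floxed livers. Among floxed livers the lymphocyte sum was highest in replicate 3 (8.37 FPKM) and the erythroid sum lowest in replicate 1 (30.4 FPKM). The 9 hepatocyte markers detected summed to 12692, 24317 and 20716 FPKM in livers labelled Alb-Cre and to 18466, 29232 and 17561 FPKM in floxed livers. That sum was lowest in Alb-Cre replicate 1, while floxed replicate 1 lay between its group's other livers. It includes Cyp2e1, the gene nearest to Mt1 in pattern. Most of its spread among livers labelled Alb-Cre came from Apoa1 (4661, 13319 and 8906 FPKM) and Cyp2e1 (1281, 4200 and 5267 FPKM). Within that group Ttr, Cps1 and Ass1 were highest in replicate 1. Apoa1, Cyp2e1, Serpina1a, Tat, Hnf4a and F2 were lowest there. None of the macrophage, neutrophil, cholangiocyte and stellate lists had a member at 0 in all livers.

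Slc39a14 and Slc39a8, the importers ZIP14 and ZIP8 that carry zinc, manganese and iron into hepatocytes, were lower in the Alb-Cre liver of every pair by similar proportions. Slc39a14 was at 49.1, 42.4 and 56.8 FPKM in livers labelled Alb-Cre and at 55.7, 55.3 and 69.2 FPKM in floxed livers. The groups overlapped through Alb-Cre replicate 3, which lay just above floxed replicates 1 and 2. The Alb-Cre liver held 88.2%, 76.8% and 82.1% of the floxed value in pairs 1, 2 and 3. Slc39a14 averaged 49.5 ± 7.20 FPKM in livers labelled Alb-Cre and 60.1 ± 7.92 FPKM in floxed livers (log2 difference -0.28, SE 0.16, 95% interval -0.66 to 0.10, limma adjusted p = 0.609).

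Slc39a8 was at 12.6, 10.6 and 10.8 FPKM in livers labelled Alb-Cre and at 14.7, 12.9 and 12.6 FPKM in floxed livers. Only Alb-Cre replicate 1 and floxed replicate 3, almost equal, kept the groups from separating. The pair values were 85.6%, 82.1% and 86.1% of the floxed liver, the narrowest spread among the 8 genes. The means were 11.4 ± 1.10 FPKM in livers labelled Alb-Cre and 13.4 ± 1.16 FPKM in floxed livers (log2 difference -0.22, SE 0.12, 95% interval -0.52 to 0.07, limma adjusted p = 0.596). Slc39a14 occupies bases 70303469 to 70351425 of chromosome 14 (minus strand) and has 13 annotated transcripts, which one value per gene cannot tell apart. Slc39a8 occupies bases 135825279 to 135888572 of chromosome 3 (plus strand) and overlaps Gm43428 and Gm43429 on its strand, so its reads may be shared with them.

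Slc39a5, the importer ZIP5 known from pancreas and intestine, was close to the detection limit. It was at 0.400, 0.982 and 1.22 FPKM in livers labelled Alb-Cre and at 1.08, 1.26 and 1.23 FPKM in floxed livers. At the estimated depth the lowest of these is about 12 reads and the highest about 34. Alb-Cre replicate 1 alone lay well below the rest, and Alb-Cre replicate 3 lay within the floxed range. The log2 difference was -0.26 (SE 0.21, 95% interval -0.76 to 0.25, limma adjusted p = 0.731), and it was -0.06 without Alb-Cre replicate 1. Slc39a5 passed the filter of at least 1 FPKM in at least 3 livers with 4 livers, 3 of them floxed. It occupies bases 128395931 to 128401229 of chromosome 10 (minus strand), opposite Ankrd52. Of 10 pancreatic acinar markers, 2 were at 0 in all livers, and their sum was 0.176 to 0.959 FPKM in livers labelled Alb-Cre and 0.0953 to 8.09 FPKM in floxed livers.

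Slc30a1, which encodes the zinc exporter ZnT1 of the plasma membrane, was also lower in the Alb-Cre liver of every pair. It was at 13.3, 8.63 and 9.29 FPKM in livers labelled Alb-Cre and at 14.2, 11.8 and 13.0 FPKM in floxed livers. Alb-Cre replicates 2 and 3 lay below every floxed liver, and Alb-Cre replicate 1 lay among them. The means were 10.4 ± 2.51 FPKM in livers labelled Alb-Cre and 13.0 ± 1.18 FPKM in floxed livers (log2 difference -0.32, SE 0.18, 95% interval -0.74 to 0.11, limma adjusted p = 0.602). With the block its interval was -0.63 to -0.0048 (limma unadjusted p = 0.0477, adjusted p = 0.303). Without Alb-Cre replicate 1 the difference was -0.49 (limma adjusted p = 0.139). Mt1 and Slc30a1 were both lower in the Alb-Cre liver of every pair but differed between replicates. In the livers numbered 1, where Mt1 was lowest, Slc30a1 was highest of its group. The part of MTF1 in either gene was not tested. Slc30a1 occupies bases 191906767 to 191913247 of chromosome 1 (plus strand), opposite 1700034H15Rik.

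Slc30a10, a manganese exporter of the hepatocyte membrane that faces bile, showed no common direction. It was at 12.1, 14.6 and 8.997 FPKM in livers labelled Alb-Cre and at 15.5, 8.56 and 10.6 FPKM in floxed livers. The Alb-Cre liver was higher in pair 2 and lower in pairs 1 and 3. The means were 11.9 ± 2.81 FPKM in livers labelled Alb-Cre and 11.5 ± 3.57 FPKM in floxed livers (log2 difference 0.06, SE 0.25, 95% interval -0.55 to 0.66, limma adjusted p = 0.959). The sign turned under quantile normalization, under sample quality weights and without either liver numbered 2. Slc30a10 occupies bases 185454848 to 185468762 of chromosome 1 (plus strand), opposite Gm2061.

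**Figure D2:**
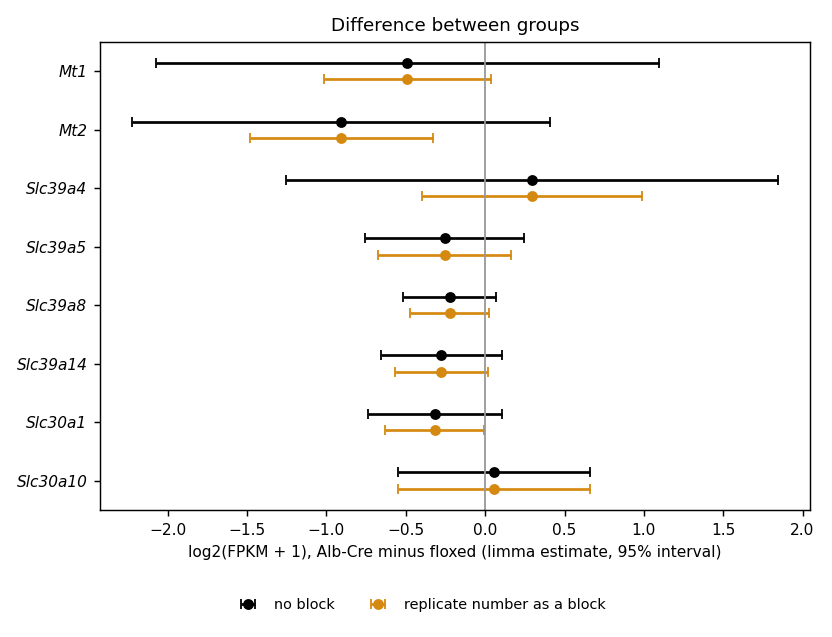
Limma estimates with 95% intervals of the difference between groups (horizontal axis, log2(FPKM + 1), Alb-Cre minus floxed) for the 8 genes, without a block in black and with the replicate number as a block in orange. Only Mt2 and Slc30a1 with the block have intervals that leave out 0, from -1.48 to -0.33 and from -0.63 to -0.0048. With the block 16.2% of all genes tested had such an interval. The pairing behind the block was taken from these same data, not from the labels.

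By mean level over all 6 livers the order was Mt1, Mt2, Slc39a14, Slc39a4, Slc39a8, Slc30a10, Slc30a1 and Slc39a5. Mt1 exceeded Mt2 in 6 of 6 livers, although their ranges overlapped. Slc39a14 exceeded Slc39a4 in 5 of 6 livers, the exception being Alb-Cre replicate 1. Slc39a8, Slc30a10 and Slc30a1 were not separated beyond their spread: Slc39a8 exceeded Slc30a10 in 4 livers, and Slc30a10 exceeded Slc30a1 in 2. The ranges of Mt2 and Slc39a14, of Slc39a4 and Slc39a8, and of Slc30a1 and Slc39a5 did not overlap. Mt1 stood at the percentile 98.4 of the 10963 genes tested and Slc39a5 at 1.11. The read estimates assume that FPKM here deducts 200 bases from each transcript, which weighs on short transcripts. Other deductions were not compared. Without that deduction Mt1, on a transcript of 549 bases, would be lower by a factor of 1.57, Slc39a14 by 1.04 and Mt2, of 511 bases, by 1.64. Mt1 and Mt2 would still exceed Slc39a14 in 6 of 6 livers, but the ranges of Mt2 (47.4 to 239) and Slc39a14 (40.7 to 66.4) would then overlap. In Alb-Cre replicate 1 Mt1 would fall below Slc39a4, with a ratio of 0.741.

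Of the 8 genes 0 passed limma's test after adjustment, where 3 of the 10963 genes tested did (0.0274%, of which 0.00912% higher and 0.0182% lower). At an unadjusted p under 0.05 there were again 0 of 8, against 9.93% of all genes. With quantile normalization, median-ratio scaling or sample quality weights it was 2 of 8, Slc30a1 and Slc39a8, both lower. In those settings 1182, 1109 and 2953 of the 10963 genes had an unadjusted p under 0.05. With the replicate number as a block, 2 of 8 had an unadjusted p under 0.05, Mt2 and Slc30a1, both lower, against 6.07% of all genes lower, 10.1% higher and 16.2% in either direction. The groups did not overlap for 0 of 8 genes, against 16.3% of all genes (10.7% higher and 5.56% lower). The mean was lower in livers labelled Alb-Cre for 6 of 8, against 43.9% of all genes lower and 56.1% higher, with a median log2 difference of -0.27 against 0.04 over all genes.

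The same 6 genes, Mt1, Mt2, Slc39a5, Slc39a8, Slc39a14 and Slc30a1, were lower in the Alb-Cre liver of all 3 same-numbered pairs, against 16.8% of all genes. With median-ratio scaling of the libraries it was again 6 (20.1% of all genes). With quantile normalization it was 5, without Slc39a5 (22.3%). Over pairs 2 and 3 alone it was 7 (31.2%), with Slc39a4 added. All 6 values come from the same livers, so the genes are not independent replicates, and no test was made of the count. Slc39a5 counts here and among the lower means above, although it passed the filter mainly through the floxed livers. In pair 3 its Alb-Cre liver held 98.9% of the floxed value. The profiles of the 6 genes were not all alike. Slc30a1 lay 0.122 from Slc39a8 and 1.012 from Mt1, as root mean square differences of centred log2(FPKM + 1) over the 6 livers.

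No gene was called in the rest of the zinc transporter families. Of the 18 other Slc39 and Slc30 genes, 12 were tested, of which 8 had higher and 4 lower means in livers labelled Alb-Cre. Limma called 0 of them, 0 had an unadjusted p under 0.05, and their median log2 difference was 0.04. In all 3 pairs 4 were higher (25.1% of all genes) and 3 lower (16.8%). The 2 families differed in their counts. Of the 7 other importers tested, 6 had higher means in livers labelled Alb-Cre (56.1% of all genes), 4 were higher in all 3 pairs, and the median log2 difference was 0.17, whereas 3 of the 4 importers among the 8 genes had lower means. Of the 5 other exporters tested, 2 had higher and 3 lower means, with a median of -0.05. The difference between these counts was not tested. Among the importers, Slc39a7, the only one of the 7 with a lower mean, which releases zinc from the endoplasmic reticulum, was at 43.8 ± 2.59 FPKM in livers labelled Alb-Cre and 47.9 ± 4.25 FPKM in floxed livers. Slc39a1, a plasma membrane importer and higher in the Alb-Cre liver of each pair, was at 29.6 ± 3.71 FPKM in livers labelled Alb-Cre and 27.0 ± 2.44 FPKM in floxed livers. The groups overlapped for each.

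Slc39a13, an importer of intracellular membranes, was the only other zinc transporter tested whose groups did not overlap, with 5.00, 6.37 and 6.62 FPKM in livers labelled Alb-Cre and 4.99, 4.74 and 4.29 FPKM in floxed livers. Alb-Cre replicate 1 and floxed replicate 1 were almost equal there, and the limma adjusted p was 0.538. It was named after its values were seen, and the groups did not overlap for 16.3% of all genes. Among the exporters, Slc30a9 was at 19.1 ± 2.31 FPKM in livers labelled Alb-Cre and 19.0 ± 0.694 FPKM in floxed livers, with overlapping groups. Slc30a5, an exporter of the secretory pathway, was at 12.0 ± 0.763 FPKM in livers labelled Alb-Cre and 12.4 ± 0.871 FPKM in floxed livers. Mtf1, the zinc sensing factor itself, was at 4.18, 2.75 and 3.42 FPKM in livers labelled Alb-Cre and 3.02, 2.30 and 3.18 FPKM in floxed livers. It was higher in the Alb-Cre liver of each pair while Mt1 and Mt2 were lower (log2 difference 0.21, limma adjusted p = 0.731). Mt3 and Mt4, the metallothioneins of brain and of stratified epithelium, were listed at 0 in all 6 livers.

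**Figure D3:**
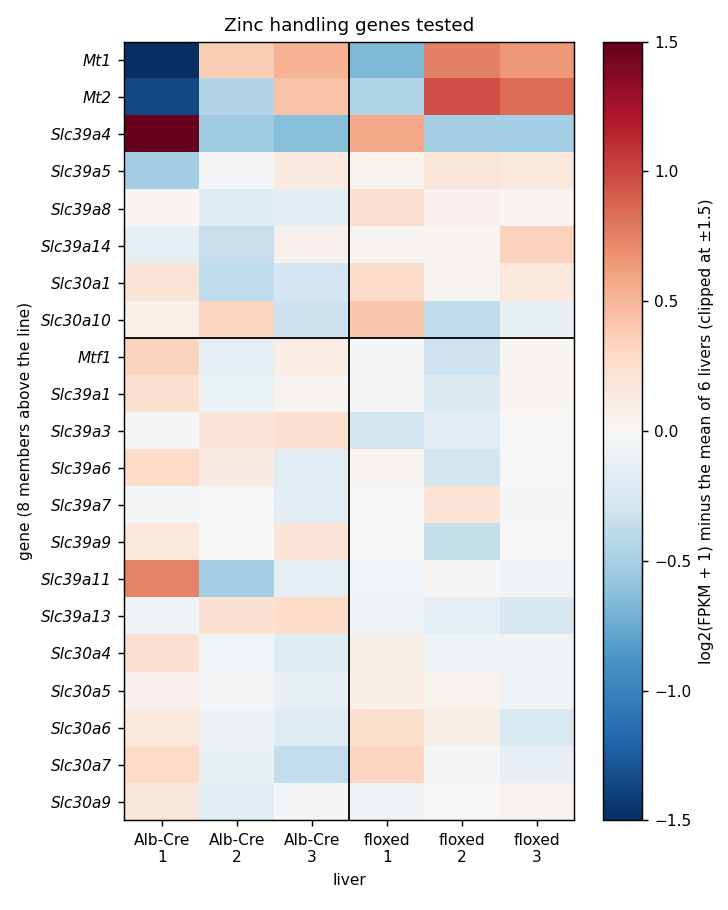
Levels of the 8 genes (above the line) and of Mtf1 and the 12 other zinc transporters tested (below it) in each liver, as log2(FPKM + 1) minus the mean of the 6 livers, with colours clipped at ±1.5. Alb-Cre replicate 1 has the lowest Mt1 and Mt2 and the highest Slc39a4, and the rows below the line are paler than those of Mt1, Mt2 and Slc39a4, apart from Slc39a11 in Alb-Cre replicates 1 and 2.

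The genes nearest in pattern to each member were sought among 10095 other protein-coding genes tested, by the root mean square difference of log2(FPKM + 1) over the 6 livers after centring. Mt1 was nearest to Cyp2e1, a cytochrome P450 of hepatocytes around the central vein, with a difference of 0.17. Cyp2e1 was at 1281, 4200 and 5267 FPKM in livers labelled Alb-Cre and at 2419, 5423 and 4412 FPKM in floxed livers, again lowest in the livers numbered 1. Next were Nr1i3, which encodes the xenobiotic receptor CAR, at 0.24 and Ahcy, an enzyme of the methionine cycle, at 0.33. For comparison, Mt2 lay 0.38 from Mt1. Mt2 itself was nearest to Pon1, which encodes a serum esterase made in liver, at 0.35, to Cyp2e1 at 0.385 and to Klf1 at 0.41.

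Slc39a4 was nearest to Cyb561, which encodes a cytochrome b561, at 0.15. Cyb561 was at 10.4, 2.17 and 2.22 FPKM in livers labelled Alb-Cre and at 5.64, 2.39 and 2.56 FPKM in floxed livers. Tagln2, an actin binding protein gene, and Tgm2, which encodes tissue transglutaminase, followed at 0.19 and 0.21. The other members varied less, so their nearest genes were closer: Hemk1 lay 0.024 from Slc30a1, Jrkl 0.030 from Slc39a8, Rhobtb1 0.044 from Slc39a14, Aspdh 0.069 from Slc39a5 and Dusp6 0.088 from Slc30a10. With this many candidates and 6 livers some gene is always near, and the distances describe these livers only.

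**Figure D4:**
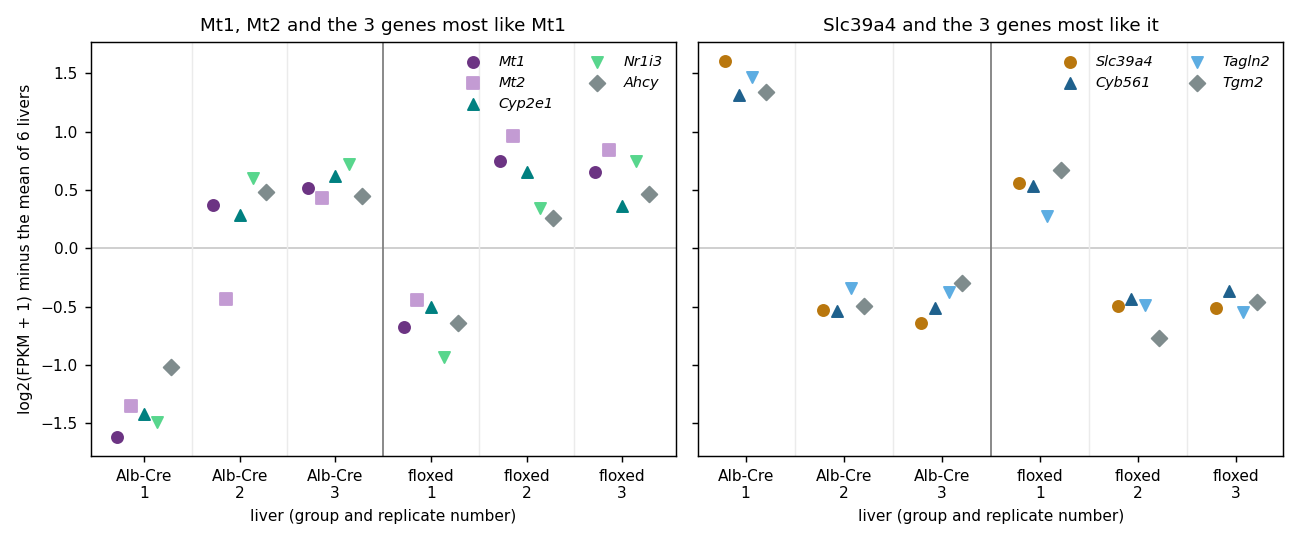
Centred levels, log2(FPKM + 1) minus the mean of the 6 livers (vertical axis), in each liver for Mt1, Mt2 and the 3 genes most like Mt1 (left) and for Slc39a4 and the 3 genes most like it (right). Each point is 1 liver, and the replicate 1 livers of both groups lie at the low end on the left, where Mt2 in Alb-Cre replicate 2 is also below 0, and at the high end on the right.

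Signals known to act on metallothioneins and Slc39a14 were described by lists of genes. Of 20 acute phase genes, 5 had an unadjusted p under 0.05 with higher and 3 with lower means in livers labelled Alb-Cre, against 6.34% and 3.59% of all genes, and limma called 0 after adjustment. Hp, the haemoglobin binding protein haptoglobin, was at 4919, 4206 and 3620 FPKM in livers labelled Alb-Cre and at 1499, 1925 and 1479 FPKM in floxed livers (limma adjusted p = 0.215). Lcn2, an iron binding protein of inflammation, was at 533, 62.1 and 57.6 FPKM in livers labelled Alb-Cre and at 53.9, 5.26 and 10.2 FPKM in floxed livers (limma adjusted p = 0.468). Both were higher in the Alb-Cre liver of each pair, where Mt1, Mt2 and Slc39a14 were lower. The list was split, with 10 higher and 10 lower means. In all 3 pairs 10 genes were higher and 6 lower, against 25.1% and 16.8% of all genes. The 3 with an unadjusted p under 0.05 and lower means were the fibrinogen chain genes Fga, Fgb and Fgg, named after their values were seen, which ran the same way as Mt1, Mt2 and Slc39a14 in each pair. Fgg was at 1737, 1968 and 1554 FPKM in livers labelled Alb-Cre and at 2929, 3255 and 2032 FPKM in floxed livers, without overlap between groups.

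Of 12 glucocorticoid response genes, 0 had an unadjusted p under 0.05, against 9.93% of all genes. Limma called 0 of the 12, and their median log2 difference was -0.03. Tat, the liver tyrosine aminotransferase, was at 642 ± 87.2 FPKM in livers labelled Alb-Cre and 543 ± 65.0 FPKM in floxed livers. Of 14 fasting and PPARA genes, 6 had an unadjusted p under 0.05, all with higher means, against 6.34% of all genes higher. Limma called 0 of the 14. Their summed FPKM was 2688, 16641 and 13703 in livers labelled Alb-Cre and 2093, 2779 and 3658 in floxed livers. The livers numbered 2 and 3 of the Alb-Cre label thus had the high values, and their part in the metallothionein levels was not tested. Of 9 oxidant response genes tested, 2 had an unadjusted p under 0.05, both with higher means (6.34% of all genes), and limma called 0. All 9 had higher means (56.1% of all genes), with a median log2 difference of 0.39. In all 3 pairs 5 of the 9 were higher (25.1% of all genes). Of 6 genes of manganese and divalent metal handling tested, 0 had an unadjusted p under 0.05 (9.93% of all genes) and limma called 0. Arg1, the manganese enzyme arginase, was at 904 ± 227 FPKM in livers labelled Alb-Cre and 1031 ± 70.2 FPKM in floxed livers.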

How the data were processed

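Poly(A) RNA of 6 livers was sequenced single end from directional libraries, per the labels' protocols. The submitters' processing notes name mm10 as the build and list STAR and DESeq2 without saying what each did. The deposited values are FPKM for each gene and liver, a unit read from the values because the header names none. Their precision was judged from estimated read totals, which rest on transcripts over 1500 bases with values under 0.5 FPKM. With an assumed deduction of 200 bases and the best-fitting total, 61.7 to 65.6% of values lay within 0.05 of a whole read (10% by chance).

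The 10963 genes that reached 1 FPKM in 3 or more livers were tested, and all 8 genes of interest passed. Log2(FPKM + 1) values were fitted with limma 3.58.1 in R 4.3.3 with an intensity trend, and p-values were adjusted over all genes tested with the Benjamini-Hochberg method at 0.05. The fit was tested on simulated data. A log2 difference is the mean of livers labelled Alb-Cre minus the floxed mean, and it understates the change of low genes. An exact permutation test of 3 livers against 3 has 0.1 as its smallest p and was not used. Every p printed is from limma.

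The replicate numbers come from the labels. The labels do not state a pairing. Deviations from the group mean over all genes tested correlated at 0.477, 0.279 and 0.283 within the pairs numbered 1, 2 and 3. Between livers of unlike number they correlated at -0.384 to 0.12, the highest being Alb-Cre replicate 3 with floxed replicate 2. The numbers were therefore taken to pair the livers. That choice was made from these same data, and the block fit and the pair counts rest on it. The genes of interest and all lists were chosen with earlier results of these data known. Genes named from a list are those with an unadjusted p under 0.05, up to 4, or else its 2 most abundant, of which a part is printed. Gene positions are from GENCODE M21 (GRCm38) and promoter windows from RefSeq (GRCm38.p6). Another 14 settings covered pseudocount, filters, scaling, weights, trend, block and each liver left out, and 3 that leave out both livers of a number were added after seeing the data.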

Additional observations from a re-analysis of the deposited data

How the results depend on the processing

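None of the 8 genes passed limma's adjusted threshold under any of the 17 alternatives. The lowest limma adjusted p was 0.0599, for Slc30a1 with sample quality weights. Slc30a1 had a limma unadjusted p under 0.05 without Alb-Cre replicate 1 (1908 of 10698 genes did). Mt2 had one without Alb-Cre replicate 3 (688 of 10859) and without floxed replicate 1 (787 of 10725). Both had one without both livers numbered 1 (1543 of 10415). Mt2, Slc39a5, Slc39a8, Slc39a14 and Slc30a1 had a negative log2 difference wherever they were tested. Leaving out 1 liver at a time gave -1.36 to -0.46 (Mt2), -0.39 to -0.06 (Slc39a5), -0.30 to -0.16 (Slc39a8), -0.38 to -0.17 (Slc39a14) and -0.49 to -0.21 (Slc30a1). With sample quality weights Mt2 was -0.16. The sign of Mt1 turned with sample quality weights (0.18) and within the range without 1 liver (-0.95 to 0.20). That of Slc39a4 turned with weights (-0.39), without both livers numbered 1 (-0.082) and without 1 liver (-0.44 to 0.69). That of Slc30a10 turned with quantile normalization (-0.0020), weights (-0.25), without both livers numbered 2 (-0.27) and without 1 liver (-0.12 to 0.27). The cause was not tested.

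Over all genes, 1 higher and 2 lower calls became 311 and 226 with weights, 0 to 73 and 0 to 74 with 1 liver left out, and 12 and 11 without both livers numbered 1. There were 0 of either without both livers numbered 2 or 3, and a filter at 5 FPKM gave 1 lower call. The highest counts with 1 liver left out are those without Alb-Cre replicate 1. The fit with the replicate block made 1 higher and 2 lower calls, changed no call of the 8 genes (adjusted p 0.233 to 0.921), and gave 1773 genes at an unadjusted p under 0.05, against 1089 without it. Without Alb-Cre replicate 1 and without both livers numbered 1, that count was 1908 and 1543. Slc39a5 gave no value at the 5 FPKM filter or without both livers numbered 3. The table holds no read counts, and precision at low FPKM rests on an estimated depth.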

Other observations

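Copper handling genes sit beside zinc in metallothionein biology, and 14 were tested. Slc31a1, the copper importer CTR1, was at 62.7, 44.9 and 54.1 FPKM in livers labelled Alb-Cre and at 80.6, 76.8 and 78.5 FPKM in floxed livers. Every liver labelled Alb-Cre lay below every floxed liver, and the floxed livers differed little among themselves (log2 difference -0.55, SE 0.15, limma unadjusted p = 0.00835, adjusted p = 0.370). It was the only gene of this list with an unadjusted p under 0.05 (9.93% of all genes), and limma called 0 after adjustment. The groups did not overlap for 3 further genes of the list, all higher, against 10.7% of all genes higher and 5.56% lower. Sod1, the copper and zinc superoxide dismutase, was among the 3 genes nearest in pattern to Slc39a5, at 0.087.

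Of 10 zinc-dependent liver enzymes 8 had lower means in livers labelled Alb-Cre, against 43.9% of all genes, with a median log2 difference of -0.23 against 0.04 over all genes and 0 called by limma. In all 3 pairs 2 of the 10 were lower (16.8% of all genes). Car3, a carbonic anhydrase abundant in liver, was at 365, 68.9 and 366 FPKM in livers labelled Alb-Cre and at 594, 1018 and 1217 FPKM in floxed livers (log2 difference -2.10, SE 0.68, limma unadjusted p = 0.0194, adjusted p = 0.429), with no overlap between groups. Car2, another carbonic anhydrase, was at 12.2 ± 3.97 FPKM in livers labelled Alb-Cre and 7.34 ± 1.29 FPKM in floxed livers (limma unadjusted p = 0.0400, adjusted p = 0.491).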
